A study of Mus musculus with 12 samples.

Results

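The 254 kb of mouse chromosome 12 next to a Mycn enhancer, from 12796001 to 13050000 (mm10), hold the Mycn gene and are covered by 245 overlapping windows of 10 kb that step by 1 kb. The windows were chosen by position alone, as all windows of the Mycn enhancer table that begin from the end of the viewpoint window (12786001 to 12796000) up to 13040001. They are 245 of the 7348 windows in that table and of the 17305 windows in the 3 tables of the series. All 245 passed the filter on low values, which asked for a value of 1 or more in 2 or more libraries.

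Contacts were measured by 4C-seq, in which formaldehyde-fixed chromatin is cut with DpnII and religated, cut again with Csp6I, and the fragments that were joined to a chosen viewpoint are then amplified and read. The ES group held 2 libraries of V6.5 mouse embryonic stem (ES) cells, an established line, grown in 2i medium, a mix of kinase inhibitors that keeps ES cells undifferentiated. The MEF group held 2 libraries of mouse embryonic fibroblasts (MEFs) grown in DMEM, taken from rtTA3-OKSM embryos at E13.5 that were heterozygous for an Oct4-GFP reporter, for the OKSM cassette of reprogramming factors and for rtTA3, the doxycycline-dependent activator that drives it; their labels give no doxycycline treatment. Only the MEFs carried these transgenes, and the ES cells are 1 line, so cell type, genotype and culture medium cannot be told apart. Values are on a scale of counts per 1000 of a library's total, which was worked out from the values. Whether that total holds all reads of a library or only those of the viewpoint chromosome is not known. Values of a cell type are given in the order of its replicates 1 and 2. ES libraries totalled 88038 and 27290 counts, MEF libraries 16774 and 59424, and the lowest count in any of the 245 windows was 23, in MEF replicate 1. Whether replicates were separate cultures is not stated, and the p-values therefore cover the spread between libraries alone, which may be technical.

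Mycn encodes a MYC-family transcription factor that binds E-box sequences, promotes growth and proliferation, and is expressed in pluripotent and many embryonic cells. Enhancers are stretches of DNA that raise transcription of a gene that may lie far away, and a folded chromosome can bring an enhancer close to the promoter it acts on. In 4C-seq the count of a window falls with distance from the viewpoint, and a stretch that is contacted more than its neighbours stands out above this decline. The comparison at this viewpoint asks how contacts differ with cell type, as a follow-up of genome-wide maps.

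The interval overlaps 6 annotated genes (RefSeq, GRCm38.p6, the assembly that mm10 names). Mycn is the only protein-coding gene, at 12936093 to 12941836, with its lower-coordinate end 145 kb from the centre of the viewpoint window. Its start, at 12941836, is the end farther from the viewpoint. The others are the long noncoding RNA genes Gm35155 (12828050 to 12829248), Gm40271 (12909417 to 12913029) and Gm35208 (12987381 to 12994349) and the pseudogenes Rpl36-ps3 (12911987 to 12912385) and Gm48201 (12949290 to 12949585). The windows between the viewpoint and Mycn thus lie mostly outside annotated genes. Promoter sequences were found for 3 of the 6 genes, and the 250 bases before each start are shown because they are the annotated starts that the windows cover. Mycn is read from the minus strand (chr12:12941837-12942086), and Gm35155 (chr12:12827800-12828049) and Gm35208 (chr12:12987131-12987380) from the plus strand. Each is written 5′ to 3′ in the direction of the gene, and capitals mark GATC (the DpnII site), GTAC (the Csp6I site) and GGGNGTG (a core of the motif bound by KLF4, the factor the series is about), searched on both strands.
Mycn: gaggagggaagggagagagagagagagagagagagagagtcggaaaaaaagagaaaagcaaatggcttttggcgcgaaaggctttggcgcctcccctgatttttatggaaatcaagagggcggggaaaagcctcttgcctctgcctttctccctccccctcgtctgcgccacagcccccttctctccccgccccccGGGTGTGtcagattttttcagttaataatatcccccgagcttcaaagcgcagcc
Gm35155: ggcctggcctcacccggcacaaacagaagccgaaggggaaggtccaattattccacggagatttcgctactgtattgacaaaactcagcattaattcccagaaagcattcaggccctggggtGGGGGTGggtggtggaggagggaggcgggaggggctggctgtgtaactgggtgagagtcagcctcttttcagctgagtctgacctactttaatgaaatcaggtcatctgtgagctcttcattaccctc
Gm35208: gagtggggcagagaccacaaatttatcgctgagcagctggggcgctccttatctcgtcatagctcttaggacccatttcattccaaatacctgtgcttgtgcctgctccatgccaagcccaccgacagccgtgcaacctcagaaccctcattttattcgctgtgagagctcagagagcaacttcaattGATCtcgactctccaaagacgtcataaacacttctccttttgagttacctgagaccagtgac
Each of the 3 promoters held 1 match. In Mycn it was GGGTGTG, 54 to 48 bases before the start, in Gm35155 GGGGGTG, 128 to 122 bases before the start, and in Gm35208 GATC, 62 to 59 bases before the start. Among 32851 promoters of this length, 26.1% held GGGNGTG, 41.9% held GATC and 31.5% held GTAC.

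Most of the interval was contacted more in ES cells than in MEFs. In limma's test over all 1107 tested windows of the table, 162 of the 245 windows (66.1%) were higher in ES cells at an adjusted p under 0.05, against 16.4% of all tested windows. No window of the interval was called higher in MEFs, against 14.2% of all tested windows. At an unadjusted p under 0.05, 5 of the 245 were lower in ES cells, against 264 of all 1107 tested windows. With edgeR's quasi-likelihood test on the recovered counts, 160 of the 245 windows were called toward ES cells, 159 of them also by limma. EdgeR called 0 of the 245 toward MEFs, with 5 lower in ES cells at an unadjusted p under 0.05. Over all 1107 tested windows edgeR called 182 (16.4%) toward ES cells and 157 toward MEFs. The median log2 difference, ES minus MEF on the log2(value + 1) scale, was 0.63 over the interval and -0.15 over all tested windows, and calls were made against 0. Because the windows overlap, their counts are not counts of independent contacts. Among the 25 windows that tile the interval without overlap, 18 were called higher in ES cells when only windows that do not overlap were tested. In that setting the table had 18 calls toward ES cells, all in the interval, and 19 toward MEFs, with 0 in the interval. How many windows were tested there is not given, so these counts cannot be read as shares. With overlapping windows kept, the table as a whole held 182 windows higher in ES cells, with 157 higher in MEFs. This split became 240 and 36 with median-centred values.

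**Figure D1:**
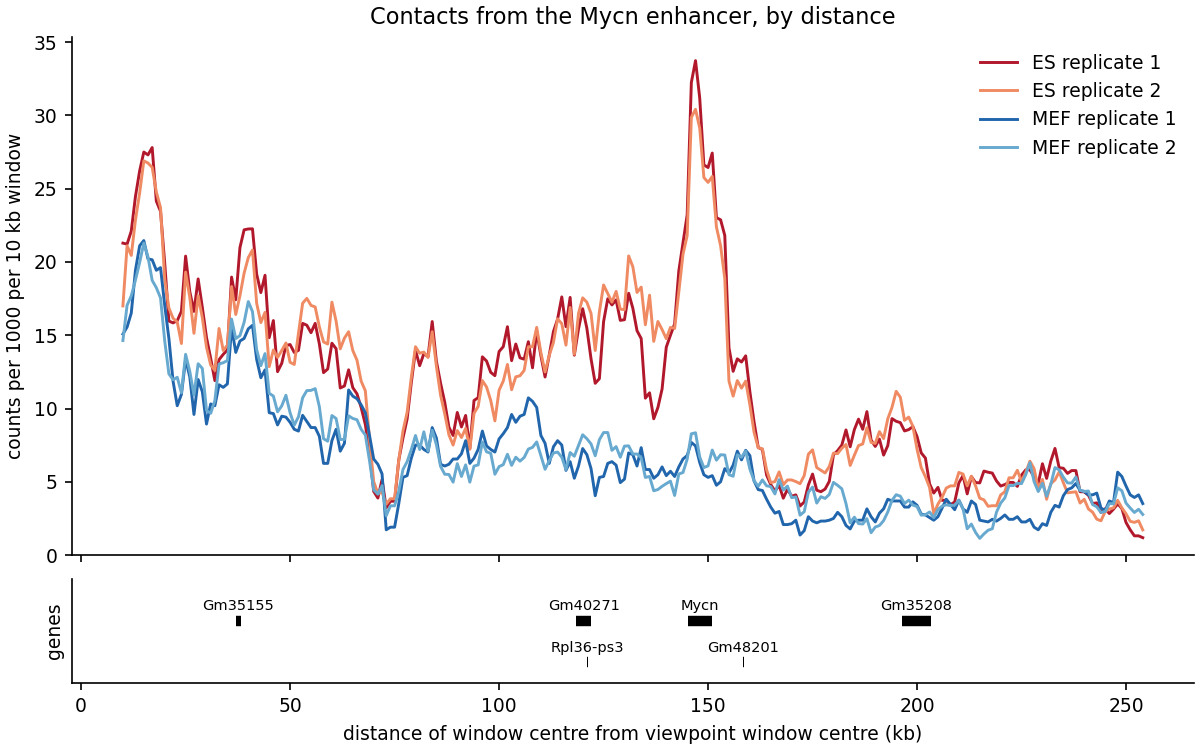
Counts per 1000 in each 10 kb window of the 4 libraries, by distance of the window's centre from the centre of the viewpoint window (kb), with the 6 annotated genes below. The ES libraries reach 33.7 and 30.4 at 147 kb, over Mycn, where the MEF libraries are at 7.45 and 8.35.

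Both ES libraries lay above both MEF libraries in 209 of the 245 windows (85.3%), compared with 26.8% of all tested windows. The reverse held in 13 windows, compared with 39.7% of all tested windows. Replicates differed less than the cell types in most of the interval: the higher value of a pair was a median 1.10 times the lower in ES cells and 1.16 times in MEFs, while the median fold of ES over MEF was 1.62. The fold ranged from 0.463 at the far end of the interval to 4.63 over Mycn. The log2 difference of 2.05 over Mycn, on the log2(value + 1) scale, was the highest of all 1107 tested windows. By fold of ES over MEF it was not, as tested windows outside the interval reached 10.9.

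As a share of this recovered total, windows that tile the interval without overlap held 29.6% and 28.7% in the ES libraries, against 16.8% and 17.4% in the MEF libraries. The groups did not overlap, with 29.1% ± 0.66 in ES cells and 17.1% ± 0.44 in MEFs (± SD over 2 libraries each; exact permutation test, two-sided, p = 0.333). With 2 libraries against 2, 0.333 is the smallest p this test can give, here and for the other values per library. Of the counts within 500 kb of the viewpoint, viewpoint window left out, the interval held 51.4% ± 1.21 in ES cells and 31.9% ± 0.12 in MEFs (± SD over 2 libraries each).

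The 4 segments below were compared along the interval, with the segment over Mycn set by the gene's coordinates. The near segment is the first 50 windows, the middle segment the next 81 up to the gene, the Mycn segment the 15 windows that overlap the gene, and the far segment the 99 windows beyond it. In the near segment the mean per window was 17.9 and 17.4 counts per 1000 in the ES libraries, against 12.7 and 13.3 in the MEF libraries, a 1.36-fold difference. In the middle segment it was 12.3 and 12.9 in ES cells, against 6.99 and 6.65 in MEFs, 1.85-fold. Over Mycn it was 23.6 and 22.1 in ES cells, against 5.96 and 6.34 in MEFs, 3.72-fold. Beyond Mycn it was 5.83 and 5.72 in ES cells, against 3.28 and 3.83 in MEFs, 1.62-fold. The ES values were above the MEF values in each of the 4 segments, by differences of 4.69, 5.78, 16.7 and 2.22 counts per 1000 in this order (exact permutation test, two-sided, p = 0.333 for each, and 0.333 adjusted over the 4). In MEFs the segment means fell with distance, whereas in ES cells the Mycn segment exceeded the near one.

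**Figure D2:**
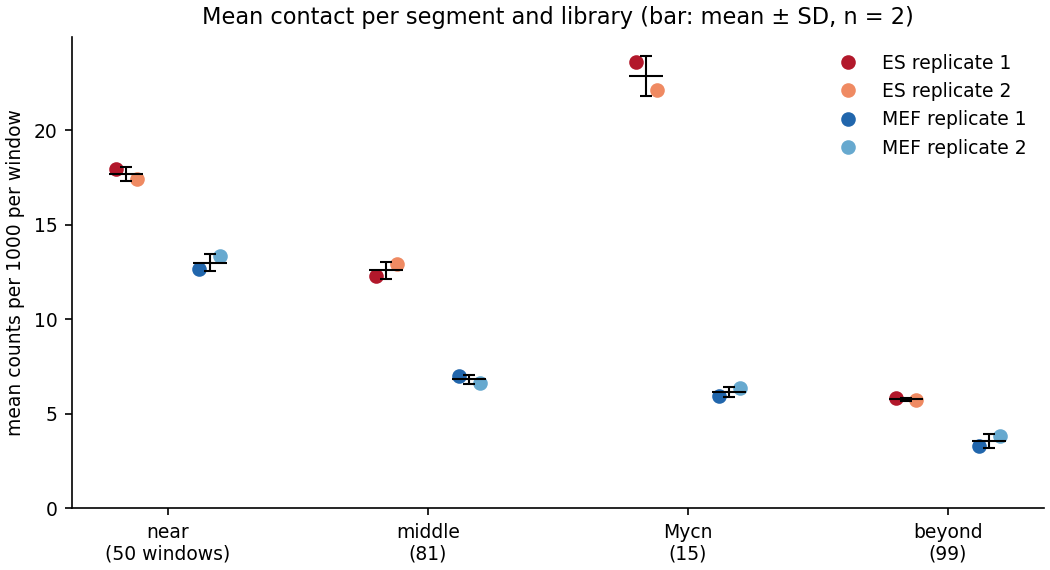
Mean counts per 1000 per window in the near, middle, Mycn and beyond segments, with 1 point per library and the mean ± SD of the 2 libraries of a group as bars. ES libraries lie at 23.6 and 22.1 over Mycn, above their near segment (17.9 and 17.4), and MEF libraries at 5.96 and 6.34, below theirs (12.7 and 13.3).

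The rise over Mycn was measured within each library, where the scaling between libraries cancels. The mean over the Mycn windows was 1.92 and 1.71 times that of the middle segment in ES replicates 1 and 2, and 0.853 and 0.953 times in MEF replicates 1 and 2. Both ES libraries rose above the stretch before the gene and both MEF libraries lay slightly below it. The log2 ratio was 0.86 ± 0.12 in ES cells and -0.15 ± 0.11 in MEFs (± SD over 2 libraries each), a difference of 1.01 (exact permutation test, two-sided, p = 0.333). Against the near segment the Mycn windows stood at 1.32 and 1.27 in ES cells and at 0.470 and 0.475 in MEFs.

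**Figure D3:**
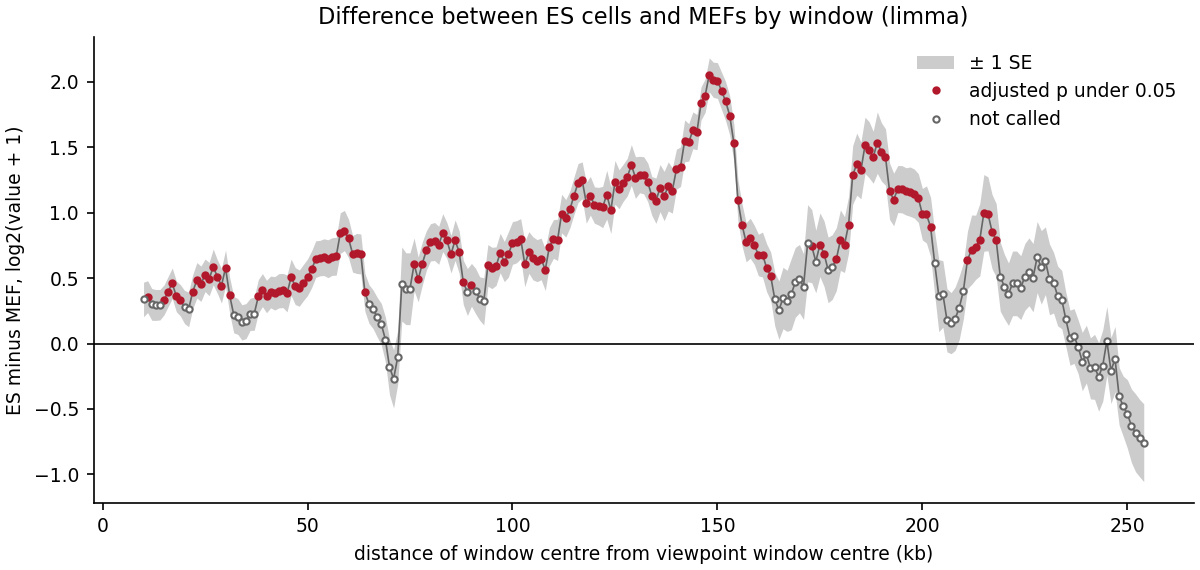
Log2 difference of each window, ES minus MEF on the log2(value + 1) scale, by distance from the viewpoint window (kb), with ± 1 SE in grey and windows at a limma adjusted p under 0.05 filled. The difference runs from 0.16 to 0.86 in the near segment, with a median of 0.40. It reaches 2.05 at 148 kb over Mycn and 1.54 at 189 kb, and falls below 0 at the far end.

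The near segment had the smallest fold of the 4 segments. In the window that adjoins the viewpoint, at 10 kb, the ES libraries had 21.3 and 17.0 counts per 1000 and the MEF libraries 15.1 and 14.6, and the difference did not pass the test (limma adjusted p = 0.0561). The window just outside the interval on this side, at 9 kb, had 20.3 and 15.7 in ES cells, against 14.6 and 14.0 in MEFs. The viewpoint window itself held 70.5 and 72.2 in ES cells, against 67.5 and 70.6 in MEFs, so both cell types gave it nearly the same share of counts. The highest MEF window of the interval lay at 15 kb, with 21.5 and 21.3 counts per 1000 in MEFs and 27.5 and 26.9 in ES cells (log2 difference 0.33 with SE 0.11, limma adjusted p = 0.0326). All 50 windows of the near segment had both ES libraries above both MEF libraries, and 38 of them were called. This excess depended on the scaling. With median-centred values the log2 differences at 10, 20, 30, 40 and 50 kb were 0.60, 0.54, 0.84, 0.62 and 0.77. Each of these 5 then passed limma's test (adjusted p from 0.000433 to 0.00728). With quantile normalization the log2 differences of the near windows at 10, 20, 30, 40 and 50 kb were -0.0786, -0.047, 0.02, 0.0034 and -0.0462, and none of these 5 passed limma's test (adjusted p from 0.713 to 0.982).

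Gm35155, the long noncoding RNA gene of the near segment, lies 37.1 kb from the viewpoint. This locus, taken with flanks of 10 kb, held 16.6 and 15.8 counts per 1000 per window in ES cells, against 11.4 and 12.4 in MEFs. The log2 difference of 0.41 (SE 0.07) passed limma's test over 24 gene loci (adjusted p = 0.00334), where 29.2% of loci were called toward ES cells and 45.8% toward MEFs. The call was lost without ES replicate 1 (limma adjusted p = 0.0842) or ES replicate 2 (0.068), and with quantile normalization the difference reversed to -0.33 (0.0898), in a range of 7.6e-05 to 0.0898 over its 16 alternatives.

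The middle segment held 66 called windows of 81, interrupted around 70 kb. At 73 kb both cell types had their lowest value before Mycn, 3.23 and 3.48 counts per 1000 in the ES libraries, against 1.73 and 2.69 in the MEF libraries (limma adjusted p = 0.228). At 71 kb, 3.90 and 4.21 in ES cells overlapped 6.20 and 4.16 in MEFs, and the log2 difference was -0.27 (limma adjusted p = 0.376, SE 0.22). No window from 65 to 75 kb passed the test, 11 in all. At 84 kb values had risen again, to 15.9 and 15.2 in ES cells, against 8.70 and 8.52 in MEFs (limma adjusted p = 0.000191), which is 4.66 ± 0.40 times the 73 kb value in ES cells and 4.10 ± 1.32 times in MEFs (± SD over 2 libraries each). The dip and the rise after it were thus seen in all 4 libraries. Positions such as these 2, chosen after their values were seen as the highest or lowest group mean within 8 windows on each side, were shared by both cell types for 4 of the 9 lows in ES cells and the 11 in MEFs (73, 93, 123 and 172 kb), and for 3 of the 10 highs in ES cells and the 14 in MEFs (15, 84 and 195 kb). Another 3 highs lay 1 kb apart, at 41 kb in ES cells and 40 kb in MEFs, at 147 and 146 kb over Mycn, and at 211 and 210 kb. Across the 245 windows the log2 group means of ES cells and MEFs correlated with Pearson's r = 0.78, a description only, since windows overlap and share fragments and distance.

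From 94 kb to 163 kb all 70 windows in a row were higher in ES cells, the longest such run of the interval (12880001 to 12959000). Within it the fold differed between positions, and both cell types had local lows before Mycn. At 94 kb ES cells had 10.6 and 9.67 counts per 1000 and MEFs 6.62 and 6.07, a fold of 1.59. At 117 kb, over Gm40271, ES cells had 17.6 and 16.9 and MEFs 6.38 and 7.0, a fold of 2.58 (log2 difference 1.25, limma adjusted p = 1.0e-06). At 131 kb, between Gm40271 and Mycn, ES cells had 17.9 and 20.4 and MEFs 6.98 and 7.45, a fold of 2.65. At 137 kb the ES libraries differed more from each other, at 9.30 and 14.6, yet both were above 5.25 and 4.39 in MEFs (limma adjusted p = 0.000125).

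The Gm40271 locus as a whole held 14.7 and 15.9 counts per 1000 per window in ES cells, against 6.93 and 6.93 in MEFs, with a log2 difference of 1.04 (limma adjusted p = 8.7e-05, SE 0.07). Rpl36-ps3, a ribosomal protein pseudogene within Gm40271, shares nearly all of these windows and had the same adjusted p. With quantile normalization over the 24 loci neither was called, at log2 differences of 0.0 and 0.11 (limma adjusted p = 1.0 and 0.474), the highest adjusted p over the 16 alternatives of each.

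Over Mycn the ES libraries rose to a high peak and the MEF libraries to a low one. At 147 kb (12933001 to 12943000), a window that holds the whole gene and its start, the ES libraries had 33.7 and 30.4 counts per 1000 and the MEF libraries 7.45 and 8.35, 4.06-fold (limma adjusted p = 4.3e-10). These were the highest values of both ES libraries in the whole interval, above those at 15 kb. At 148 kb, the window of smallest p, they were 31.2 and 29.1 in ES cells, against 6.32 and 6.70 in MEFs, a log2 difference of 2.05 (limma adjusted p = 4.2e-10, SE 0.13). The log2 difference there stayed between 1.61 and 2.32 and was called in each of the 15 alternatives tried. Its adjusted p was highest without the trend, at 0.00368 in limma's test. The 5 windows that hold the whole gene, from 146 to 150 kb, ranged from 26.4 to 33.7 and from 25.4 to 30.4 in ES replicates 1 and 2, and from 5.31 to 7.69 and from 5.97 to 8.35 in MEF replicates 1 and 2. Their folds ran from 3.89 to 4.63.

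**Figure D4:**
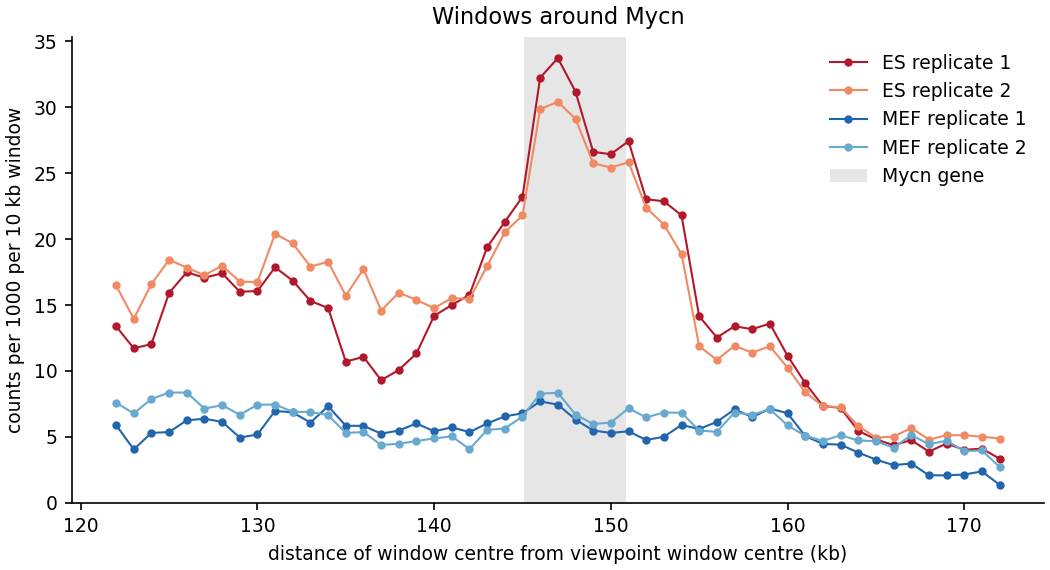
Counts per 1000 in the windows within 25 kb of the ES maximum, 1 line per library, by distance of the window's centre from the viewpoint window (kb), with the Mycn gene shaded. Both ES libraries step up between 145 and 146 kb and down between 154 and 155 kb, and the MEF libraries stay at or below 8.36 throughout.

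The steepest steps of the ES peak made up only part of its height. The ES libraries had already climbed from 14.2 and 14.8 counts per 1000 at 140 kb to 23.2 and 21.8 at 145 kb. Windows at 50% of the maximum or more ran from 143 to 154 kb in ES replicate 1 and from 141 to 154 kb in ES replicate 2. Among windows that begin 100 kb or more past the viewpoint window, the steepest rise between neighbouring windows lay between 145 and 146 kb in both ES libraries, from 23.2 to 32.2 counts per 1000 in replicate 1 and from 21.8 to 29.9 in replicate 2. The steepest fall lay between 154 and 155 kb in both, from 21.8 to 14.2 and from 18.9 to 11.9. The 9 windows between these steps have 2 kb in common, 12940001 to 12942000, which hold the annotated start of Mycn at 12941836. These 2 kb are tied to the steps alone and do not place the whole peak. In the same 9 windows the MEF mean ranged from 5.62 to 7.98, against 20.3 to 32.1 in ES cells. In MEF replicate 2 the steepest rise was also between 145 and 146 kb, from 6.55 to 8.28, but its steepest fall and both steps of MEF replicate 1 lay elsewhere. The sources used here do not give how reads that cross a window's edge were counted, so positions finer than a window are approximate.

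The MEF libraries also rose over Mycn, but from and to lower values. At 142 kb, the local low of the MEF mean, they had 5.37 and 4.07 counts per 1000, and at 146 kb, its local high, 7.69 and 8.28. From the local low of the ES mean at 137 kb to 147 kb, values rose 3.63 and 2.09 times in the ES libraries and 1.42 and 1.90 times in the MEF libraries. The groups did not overlap in this ratio, yet MEF replicate 2 came close to ES replicate 2. MEF replicate 1 held 10.7 counts per 1000 at 107 kb, before the gene, and 7.45 at 147 kb. Among the 145 windows that begin 100 kb or more past the viewpoint window, with centres from 110 kb, its highest value was 8.17 in the very first, on the slope down from 107 kb. MEF replicate 2 reached 8.36 at 125 kb, fell to 4.39 at 137 kb and 4.07 at 142 kb, and reached 8.35 at 147 kb. Around the 125 kb window 66 neighbouring windows of MEF replicate 2, from 76 to 141 kb, stayed at 50% of its value or more, compared with 12 and 14 windows around the maxima of the ES libraries.

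The Mycn locus with flanks of 10 kb held 16.7 and 16.9 counts per 1000 per window in ES cells, against 5.86 and 5.95 in MEFs (log2 difference 1.37 with SE 0.06, limma adjusted p = 4.0e-05), and was called in each of its 16 alternatives. Gm48201, a pseudogene just past the start of Mycn, shares most of its windows with the Mycn locus, those of the ES peak among them. It held 14.5 and 13.8 in ES cells, against 4.82 and 5.62 in MEFs (limma adjusted p = 8.7e-05).

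Past the Mycn start ES values dropped, and MEF values rose once more before they dropped. At 155 kb ES cells still had 14.2 and 11.9 counts per 1000 and MEFs 5.60 and 5.49. At 159 kb, a local high of the MEF mean, ES cells had 13.6 and 11.9 and MEFs 7.15 and 7.10. At 163 kb, the last window of the long run, ES cells had 7.20 and 7.26 and MEFs 4.41 and 5.13 (limma adjusted p = 0.0399). From 164 to 172 kb no window passed the test. At 172 kb values were 3.35 and 4.87 in ES cells, against 1.37 and 2.73 in MEFs (limma adjusted p = 0.0528), so that the 147 kb window exceeded this low 10.1 and 6.24 times in the ES libraries and 5.43 and 3.06 times in the MEF libraries. By 172 kb all 4 libraries had fallen on this side of the gene, and the higher MEF ratio lay below the lower ES ratio.

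A second, lower rise followed at and before Gm35208, at higher values in ES cells. All 24 windows from 179 to 202 kb (12965001 to 12998000) were called higher in ES cells. The largest log2 difference there was at 189 kb, 1.54 (limma adjusted p = 4.3e-05), where the ES libraries had 7.86 and 7.70 counts per 1000 and the MEF libraries 2.62 and 1.53, a fold of 3.74. At 195 kb, which covers the start of Gm35208, the ES mean of this stretch was highest, with 9.13 and 11.2 against 3.70 and 4.12 in MEFs (log2 difference 1.18 with SE 0.18, limma adjusted p = 4.3e-05). The level at 195 kb was 0.271 and 0.367 times that at 147 kb in the ES libraries and 0.496 and 0.494 times in the MEF libraries. Against the window at 204 kb, the 195 kb window stood at 2.16 and 3.96 in the ES libraries and at 1.55 and 1.61 in the MEF libraries, so all 4 libraries were higher at 195 kb. Against the low before it, at 172 kb, it stood at 2.73 and 2.29 in the ES libraries and at 2.70 and 1.51 in the MEF libraries, where the groups overlapped. Over the Gm35208 locus with flanks of 10 kb ES cells held 6.68 and 6.48 and MEFs 2.95 and 2.77 per window (log2 difference 0.97 with SE 0.07, limma adjusted p = 0.000111). All 6 gene loci of the interval were thus higher in ES cells, though some of them share windows.

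MEF replicates parted most in the far segment. The higher MEF value exceeded the lower by more than 1.5 times in 36 of its 99 windows, between 167 and 234 kb, with MEF replicate 2 the higher in 30 of them, and in 6 windows of the rest of the interval. The 2 MEF libraries differed most, 2.63 times, at 228 kb, with 1.91 and 5.01 counts per 1000 against 5.34 and 5.90 in ES cells. At 230 kb MEF replicate 1 had 36 counts, 2.15 per 1000 with an exact 95% Poisson upper bound of 2.97, and MEF replicate 2 had 291 counts, 4.90 with a lower bound of 4.35. The intervals, which cover counting error only, did not overlap, so these libraries differed by more than counting error there. Of the 36 windows, 14 were called higher in ES cells, compared with 43.4% of the far segment and 16.4% of all tested windows. In 28 of them both ES libraries lay above both MEF libraries, compared with 69.7% of the far segment and 26.8% of all tested windows. At 180 kb, a called window among the 36, MEFs had 2.50 and 4.96 and ES cells 6.84 and 6.96 (limma adjusted p = 0.0136). The call was lost without ES replicate 1 (limma adjusted p = 0.0524), ES replicate 2 (0.0675) or MEF replicate 1 (0.179), with quantile normalization (0.107) and without the trend (0.0732), in a range of 0.0007 to 0.179 over 16 alternatives.

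The higher contact of ES cells ended before the end of the interval. The last called windows were 8 in a row from 211 to 218 kb, with 4.93 and 3.88 counts per 1000 in ES cells, against 2.38 and 1.14 in MEFs at 215 kb (limma adjusted p = 0.0138). None of the 36 windows from 219 to 254 kb passed the test, with a log2 difference above 0 in 20 and below 0 in 16. Their medians were 4.76 and 3.96 in the ES libraries, against 3.46 and 4.38 in the MEF libraries, so the groups overlapped. From 246 kb on both MEF libraries were above both ES libraries in every window. At 254 kb, the last window, ES cells had 1.19 and 1.72 and MEFs 3.52 and 2.78, a log2 difference of -0.76 (limma adjusted p = 0.0568, SE 0.30), and just outside, at 255 kb, 1.14 and 1.36 against 2.98 and 2.59. In 3 of its 15 alternatives the last window was called higher in MEFs: without the trend (limma adjusted p = 0.0455), with a replicate block (0.0482) and with a value of 1 or more asked of every library (0.0218), in a range of 0.0218 to 0.296.

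At the same distances on the other side of the viewpoint, from 12532001 to 12786000, the order of the cell types was the opposite. The mean per window there was 6.63 and 7.11 counts per 1000 in ES cells, against 8.48 and 8.99 in MEFs, and over the Mycn side 11.5 and 11.5 in ES cells, against 6.59 and 6.85 in MEFs. Within a library, the Mycn side held 1.74 and 1.62 times the other side in ES replicates 1 and 2 and 0.777 and 0.762 times in MEF replicates 1 and 2. The log2 ratio was 0.75 ± 0.08 in ES cells and -0.38 ± 0.02 in MEFs (± SD over 2 libraries each), a difference of 1.12 that does not depend on the scaling between libraries (exact permutation test, two-sided, p = 0.333). Of the 245 windows on the other side, limma called 3 (1.22%) higher in ES cells, against 16.4% of all tested windows. It called 66 (26.9%) higher in MEFs, against 14.2% of all tested windows. Calls toward MEFs over the whole table fell from 157 to 36 with median-centred values. How the 66 change with the scaling was not tested.

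**Figure D5:**
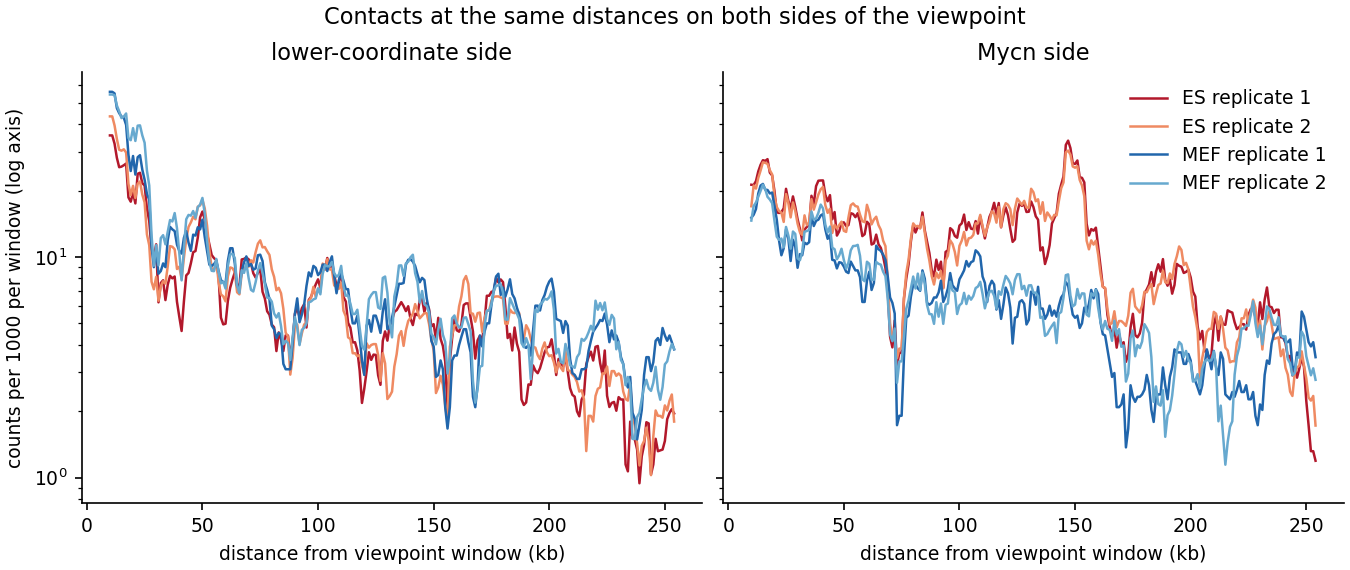
Counts per 1000 per window on a log axis, by distance from the viewpoint window (kb), on the lower-coordinate side (left) and the Mycn side (right), 1 line per library. The sides average 6.63 and 7.11 on the left and 11.5 and 11.5 on the right in ES cells, and 8.48 and 8.99 on the left and 6.59 and 6.85 on the right in MEFs.

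In ES cells the imbalance between the sides was largest at the distance of Mycn among the 4 segments. The Mycn windows held 4.58 and 5.12 times the value of the windows at the same distances on the other side in ES replicates 1 and 2, and 1.05 and 1.07 times in MEF replicates 1 and 2. In MEFs the Mycn windows thus lay close to the level that the other side had at that distance, 5.69 and 5.91 counts per 1000. In the near segment this ratio was 1.24 and 1.08 in ES cells, against 0.644 and 0.595 in MEFs, in the middle segment 2.04 and 2.07 against 1.00 and 0.960, and beyond Mycn 1.73 and 1.56 against 0.732 and 0.875. The ES ratios were above the MEF ratios in each segment, and the difference between the groups was 3.79 at Mycn and 0.54 to 1.07 in the other segments.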

How the data were processed

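The authors deposited 1 table per viewpoint, CPM by name. Per the submitters' processing notes, Bowtie 1.0.0, edgeR and the build mm10 were used; their roles, duplicate removal and window counting are not given in the sources used here. Each value was a whole multiple of a library's step (100% of values within a tolerance of 0.01 counts), and 1000 divided by the step gave a whole number, read as the library total, without knowing which reads it counts. The values are thus counts per 1000.

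Sample titles gave the groups, and the window of highest mean was taken as the viewpoint. All 1107 windows of the Mycn enhancer table whose value reached 1 or more in 2 or more libraries, and 24 gene loci, were tested on log2(value + 1), which understates changes of low values, with limma 3.58.1 in R 4.3.3 (eBayes with trend, two-sided, Benjamini-Hochberg). The counts recovered from the deposited values went through edgeR 4.0.16 (quasi-likelihood test) as an alternative, and the limma step was checked on simulated data. Per-library values had exact permutation tests. Replicate pairs differed by more than sampling noise within the interval (chi-square p = 6.8e-07 for ES, 1.2e-13 for MEFs). Named windows were tiling windows, ends of runs, extremes and windows over genes; other positions were chosen after their values were seen. The interval, segments and lists were chosen with earlier results of these data known. Figures used matplotlib 3.10.9. The tables of the other viewpoints were used only to count windows.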

Additional observations from a re-analysis of the deposited data

How the results depend on the processing

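The share of the interval, its ratio to the other side and the Mycn ratio differed in the same direction in each of their 5 or 6 alternatives. The 4 segment means did so in each of 6, quantile normalization not among them. For all of these, the alternatives that leave out a library could not change the direction, since both ES values lay above both MEF values. The count of 162 windows higher in ES cells became 69 with quantile normalization, 96 without the trend and 18 among 25 windows that do not overlap, where fewer windows were tested. The count of 0 windows higher in MEFs became 3 with a value of at least 1 in all 4 libraries, 1 without the trend and 1 with a replicate block. Gene loci called fell from 6 to 3 with quantile normalization. Over the whole table, windows higher in ES cells and in MEFs numbered 182 and 157, 137 and 77 without a filter, 240 and 36 with median-centred values, and 97 and 87 with quantile normalization. Leaving out a library gave 120 to 178 and 79 to 107. The cause of these changes was not tested.

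Quantile normalization reversed the windows at 10, 20, 50 and 240 kb (to -0.0786, -0.047, -0.0462 and 0.0098) and the Gm35155 locus (to -0.33). Median-centred values reversed those at 70 and 240 kb (to 0.0861 and 0.1844), and leaving out a library moved that at 70 kb between -0.4132 and 0.056, reversed without MEF replicate 1. Among the 27 windows named by rule, 374 of 430 values kept their direction and side of the threshold, and 91 of 96 among the 6 loci.

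The labels do not say whether replicate numbers pair the libraries. Deviations of ES and MEF replicate 1 from their group means correlated at r = 0.04 over 1107 windows. With only a pair of libraries per cell type, and windows that overlap, this cannot show whether they were paired. With a replicate block 174 windows were higher in ES cells and 6 gene loci were called. MEF replicate 1, with 16774 counts, limits the precision most, since 1 count there is worth 0.0596 per 1000; thinned to that depth, 134 windows were higher in ES cells.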
